A study of Mus musculus with 3 samples.

Results

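The nuclear genes of the mitochondrial respiratory chain and ATP synthase were examined for ETV5 binding and for H3K4me3 in mouse alveolar type II (AT2) cells, the surfactant-producing epithelial cells of the lung alveolus. The 100 genes were all RefSeq protein-coding genes on chromosomes 1 to 19 and X of GRCm38 whose symbols begin with Nduf, Sdha to Sdhd, Uqcr, Cox4 to Cox8 or Atp5, out of 21627 protein-coding genes on those chromosomes. They comprised 41 genes of complex I and 8 of its assembly factors, 4 of complex II and 4 of its assembly factors, 8 of complex III, 18 of complex IV and 17 of ATP synthase. The symbols were the only basis of this choice, and no measured value entered it. Genes of these complexes with other symbols, among them Cyc1 and Cycs, are described separately at the end.

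Chromatin came from AT2 cells of C57BL/6 mice aged 10 to 12 weeks, with no genotype or treatment beyond the strain given in the labels. It was sheared to 300 to 500 bp and immunoprecipitated with an antibody against ETV5 (Proteintech) or against histone H3 trimethylated at lysine 4 (H3K4me3, Abcam), and an input was sequenced beside them. There was 1 library per antibody, so none of the values below has a replicate check and no test between conditions was possible. How many mice went into each library the labels do not say.

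The respiratory chain passes electrons from NADH and succinate through complexes I to IV to oxygen and pumps protons across the inner mitochondrial membrane, and ATP synthase uses the proton gradient to make ATP. Most of its subunits are encoded in the nucleus, and their promoters are known as targets of the nuclear respiratory factors, NRF1 and the ETS-family factor GABP, which binds a GGAA core. ETV5 is another ETS-family factor and recognises the same core. H3K4me3 is a histone mark of active promoters.

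Promoter sequences from the RefSeq table (GRCm38.p6) are shown for 9 genes on which the results turn, each 5′ to 3′ on the strand of the gene, from 150 bases upstream up to the base before the annotated start. For Sdhd and Atp5j the sequence is shorter. It is cut by the smallest gap between a start of the gene and an upstream start of its divergent neighbour. Capitals mark the ETS sequence searched for, CCGGAAG, or its reverse complement. The first pair are complex I genes that differ most in ETV5. Ndufb1 (chr12:101975739-101975888, minus strand) had the highest ETV5 fold of the 100 genes, and Ndufs5 (chr4:123718187-123718336, minus strand) had H3K4me3 but no ETV5 peak.
Ndufb1: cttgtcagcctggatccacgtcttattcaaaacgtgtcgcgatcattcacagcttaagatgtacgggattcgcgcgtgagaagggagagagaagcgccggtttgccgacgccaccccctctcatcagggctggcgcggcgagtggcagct
Ndufs5: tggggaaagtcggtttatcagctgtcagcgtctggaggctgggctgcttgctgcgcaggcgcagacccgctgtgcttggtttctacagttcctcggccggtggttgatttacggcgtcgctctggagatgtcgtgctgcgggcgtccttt
Neither window holds the 7-letter sequence or its 6-letter form CCGGAA. The Ndufb1 window holds no GGAA on either strand, and the Ndufs5 window holds 2. A window without the letters says only that they are not in these bases.

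The other windows hold the ETS sequence and stand for each complex. They are Ndufb7 (chr8:83566608-83566757, plus strand) of complex I, the complex I assembly factor Ndufaf1 (chr2:119662835-119662984, minus strand), Sdhd (chr9:50603850-50603900, minus strand) of complex II, Uqcrh (chr4:116075071-116075220, minus strand) of complex III, Cox6b1 (chr7:30626115-30626264, minus strand) of complex IV, and Atp5h (chr11:115419920-115420069, minus strand) and Atp5j (chr16:84834977-84835123, minus strand) of ATP synthase.
Ndufb7: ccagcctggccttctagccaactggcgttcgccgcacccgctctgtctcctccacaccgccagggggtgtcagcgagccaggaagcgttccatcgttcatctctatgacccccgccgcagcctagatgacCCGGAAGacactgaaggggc
Ndufaf1: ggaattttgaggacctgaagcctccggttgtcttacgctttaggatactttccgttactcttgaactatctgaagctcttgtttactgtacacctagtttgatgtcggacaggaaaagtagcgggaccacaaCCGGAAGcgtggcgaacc
Sdhd: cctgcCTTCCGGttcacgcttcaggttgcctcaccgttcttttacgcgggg
Uqcrh: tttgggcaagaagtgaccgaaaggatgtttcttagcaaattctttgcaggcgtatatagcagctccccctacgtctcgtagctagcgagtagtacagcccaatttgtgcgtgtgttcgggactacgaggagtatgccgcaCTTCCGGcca
Cox6b1: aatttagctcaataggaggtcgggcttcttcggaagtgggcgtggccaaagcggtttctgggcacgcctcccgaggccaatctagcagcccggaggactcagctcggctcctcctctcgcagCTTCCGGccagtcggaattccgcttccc
Atp5h: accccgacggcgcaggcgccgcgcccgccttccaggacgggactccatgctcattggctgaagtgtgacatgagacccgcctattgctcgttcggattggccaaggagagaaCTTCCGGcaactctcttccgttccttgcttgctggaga
Atp5j: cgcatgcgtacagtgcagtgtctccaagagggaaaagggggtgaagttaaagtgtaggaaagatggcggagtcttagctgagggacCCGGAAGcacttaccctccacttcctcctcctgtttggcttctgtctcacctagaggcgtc
The Atp5j sequence lies upstream of the Atp5j start nearest to the ETV5 summit, and another annotated Atp5j start lies further upstream. The divergent neighbour of Atp5j is Gabpa, the gene for the DNA-binding subunit of GABP. In Atp5h the ETV5 summit lay 2 bp from the centre of the capitals, in Cox6b1 12 bp and in Ndufaf1 13 bp, whereas in Atp5j it lay 134 bp and in Uqcrh 217 bp away.

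The ETV5 library held 5715049 tags and the H3K4me3 library 34907608, and MACS2 lists 31165 ETV5 and 15134 H3K4me3 peaks at a q-value threshold of 0.05. Fold enrichment below is the authors' value for a peak, its pileup over the local input background, and a gene is given the highest fold among its peaks. A pileup is the number of fragments over the summit, and its exact 95% Poisson interval covers counting error only. The lower ETV5 depth limits which weak ETV5 peaks could be called, and folds cannot be set across the ETV5 and H3K4me3 lists, whose depth and input differ. All 8 AT2 markers examined carried H3K4me3, while the mark lay near 1 of 4 endothelial, 0 of 3 mesenchymal, 0 of 2 basal, 0 of 2 airway secretory and 3 of 4 leukocyte markers. Among other lung epithelial types it lay near 3 of 4 AT1 and 2 of 2 ciliated markers. The endothelial gene with the mark was Tek, at an H3K4me3 fold of 5.80. The leukocyte genes were Cd68 at 62.1, Lyz2 at 38.2 and Spi1 at 5.39, while Ptprc had no peak. The strongest ETV5 peak of Cd68 was nearest to another gene, Eif4a1. The part of other cells in the values was not tested.

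Nearly all genes of the chain had both marks. ETV5 peaks lay within 5 kb of 94 of the 100 genes and H3K4me3 peaks within 5 kb of 95, against 64.0% and 60.5% of all protein-coding genes. Both marks lay near 93 genes, H3K4me3 alone near 2 (Ndufs5 and Cox7a1), ETV5 alone near 1 (Cox8b) and neither near 4 (Ndufb4b, Ndufb4c, Cox7b2 and Cox8c). In 92 genes an ETV5 peak overlapped an H3K4me3 peak by at least 1 bp, against 56.7% of all genes. Set beside genes that carry H3K4me3, the ETV5 share was close to the background, with 93 of 95 respiratory chain genes (97.9%) against 95.2% of all genes with the mark.

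The strength of the ETV5 peaks was also near that of other genes. The highest ETV5 fold had a median of 14.6 over the 94 genes, with quartiles of 9.23 and 22.2 and a range of 3.92 to 108, against a median of 14.4 over the other genes with ETV5 and 15.8 over the other genes with ETV5 and H3K4me3. In 65 of the 100 genes the fold was 10 or more, against 43.5% of all genes. Among genes with H3K4me3 the shares were 68.4% and 70.9%. The highest H3K4me3 fold had a median of 39.5 and ranged from 3.29 to 60.9, against a median of 35.6 over the other genes with the mark. The widest H3K4me3 peak had a median width of 1479 bp, against 1487 bp, and did not exceed 4636 bp, whereas the AT2 markers had widths of 3539 to 12934 bp.

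**Figure D1:**
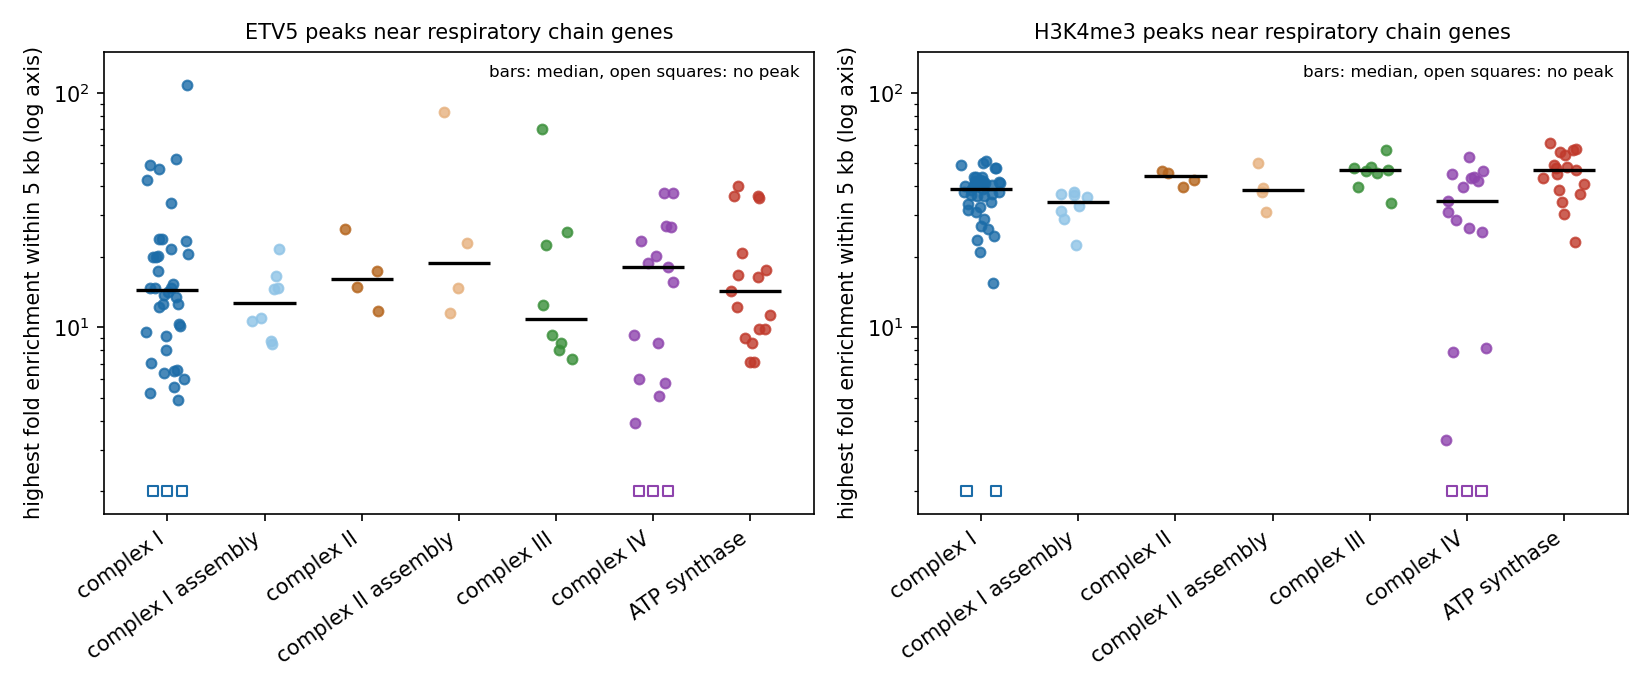
Highest ETV5 (left) and H3K4me3 (right) fold enrichment within 5 kb of each of the 100 genes by complex, on a log axis, with 1 point per gene, bars at the median and open squares for genes without a peak. The ETV5 folds spread from 3.92 to 108 within and between complexes, and the H3K4me3 folds lie mostly above 20 with 3 complex IV genes below 10.

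Many of these genes are short and lie beside others, so a peak within 5 kb can belong to a neighbour. Of the 94 strongest ETV5 peaks, 62 (66.0%) had their summit nearest to an end of the gene itself, against 77.5% over all genes with ETV5, and 32 had it nearest to another gene. The 94 genes drew on 166 distinct ETV5 peaks, of which 128 (77.1%) overlapped H3K4me3, against 48.9% of all ETV5 peaks. The 2 sets are unlike, since the 166 were taken near genes that mostly carry H3K4me3 and the others wherever they lay. A single ETV5 peak served 57 genes and several peaks served 37, with a maximum of 9 at Ndufa4l2, whereas of the other genes 5688 had a single peak and 8053 several. No peak was shared by a pair of the 100 genes.

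Complex I takes electrons from NADH to ubiquinone through core subunits kept since bacteria and a shell of accessory subunits. Its 41 genes included 38 with ETV5 (median fold 14.4, from 4.88 to 108) and 39 with H3K4me3 (median fold 39.1). Ndufb1, an accessory subunit of the membrane arm, had an ETV5 pileup of 242 fragments (95% interval 212 to 274) and a fold of 108, which ranked 41 among the 31149 ETV5 peaks on these chromosomes. The peak spanned chr12:101975368-101976614 of GRCm38. The summit lay 85 bp upstream of the Ndufb1 start, in the 236 bp that separate it from Cpsf2, a cleavage and polyadenylation factor transcribed away from it, and was nearest to the annotated end of Cpsf2. The H3K4me3 fold of Ndufb1 was 43.8.

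The 7 nuclear core subunits, grouped after their values were seen, all had ETV5, at a median fold of 23.7 and none below 14.6, while 31 of the 34 accessory genes had it at a median of 12.6 and a range of 4.88 to 108. Among the core genes Ndufv2, an iron-sulfur subunit of the NADH-oxidising module, had 144 fragments (121 to 169.5) and a fold of 47.1 at a summit 1545 bp beyond the far end of the gene, and a fold of 12.2 at 159 bp inside its start. Ndufs1, the largest iron-sulfur subunit, had 88 fragments (70.6 to 108) and a fold of 42.4, nearest to Eef1b2. Both of these values thus came from peaks at a distance from the start or nearest to another gene.

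The accessory subunit Ndufa13 had an ETV5 fold of 49.1, with the summit 338 bp inside its start and nearest to its neighbour Tssk6. At the low end Ndufv3 had a fold of 4.88 and 13 fragments (6.92 to 22.2), Ndufs4 had a fold of 5.23 and 14 fragments, and Ndufb11 had a fold of 5.55. The H3K4me3 folds of the same genes were not low, at 41.4 for Ndufv3, 36.7 for Ndufs4 and 23.7 for Ndufb11. The widest H3K4me3 peaks of complex I were 2953 bp for Ndufb6, nearest to Smim27, 2259 bp for Ndufa11 and 2249 bp for Ndufb3, nearest to Fam126b.

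Ndufs5, an accessory subunit, was the only gene with H3K4me3 at an ordinary level and no ETV5 peak. Its H3K4me3 peak was 1282 bp wide with 207 fragments (180 to 237) and a fold of 32.6, and its summit lay 193 bp inside the start. The nearest ETV5 peak lay 24922 bp from the gene, so an ETV5 peak was not detected at this depth. Ndufb4b and Ndufb4c, annotated copies of Ndufb4 with extents of 471 and 485 bp, had neither mark, and their nearest ETV5 peaks lay 33165 and 57411 bp away. Ndufb4 itself had an ETV5 fold of 9.54 and an H3K4me3 fold of 42.7, and reads from such near-identical copies may not be placed uniquely.

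The 8 assembly factors of complex I, which build the complex but are not part of it, all had both marks. Their ETV5 folds ran from 8.46 for Ndufaf5 to 21.5 for Ndufaf3, with a median of 12.7, and their H3K4me3 folds had a median of 34.4. The strongest Ndufaf3 peak was nearest to Wdr6, and the value at the Ndufaf3 start was 16.6. Ndufaf8 also had a fold of 16.6, at a summit 18 bp from its start, and Ndufaf6 had 14.6, Ndufaf1 14.5 and Ndufaf7 11.0. The widest H3K4me3 peaks of the group were those of Ndufaf3 (2267 bp), Ndufaf5 (1609 bp, nearest to Esf1) and Ndufaf8 (1568 bp).

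Complex II oxidises succinate and belongs to both the citric acid cycle and the chain. All 4 subunit genes had both marks, with a median ETV5 fold of 16.1 and a median H3K4me3 fold of 44.0. Sdhb, the iron-sulfur subunit, had an ETV5 fold of 26.3 and 58 fragments (44.0 to 74.98). The membrane anchors Sdhc and Sdhd had folds of 17.4 and 14.9. Sdha, the flavoprotein subunit, had 11.7 at a peak nearest to Pdcd6 and 6.01 at its own start. The widest H3K4me3 peaks of the complex measured 1749 bp at Sdhd, 1606 bp at Sdha and 1469 bp at Sdhb. Of the 4 assembly factors Sdhaf2, which is needed to attach the flavin to Sdha, had a fold of 82.7 and 148 fragments (125 to 174), rank 124 of the ETV5 peaks. Its summit lay 333 bp upstream of the Sdhaf2 start, on the side of Cpsf7, a second cleavage factor gene, whose start is 35 bp from that of Sdhaf2. Sdhaf3 had a fold of 22.8, Sdhaf1, which acts in iron-sulfur insertion into Sdhb, 14.7, and Sdhaf4 11.5. Their H3K4me3 peaks were up to 1710 bp wide, at Sdhaf2, where the summit was nearest to Cpsf7.

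Complex III passes electrons from ubiquinol to cytochrome c. All 8 genes had both marks, with ETV5 folds of 7.30 to 69.9 and a median of 10.8, and a median H3K4me3 fold of 46.8. Uqcrh, the hinge protein, had 156 ETV5 fragments (132 to 182) and a fold of 69.9. The ETV5 summit lay 224 bp upstream of its start, nearest to Lrrc41. The H3K4me3 peak of Uqcrh, also nearest to Lrrc41, measured 2923 bp with a fold of 56.8 and was the widest of the complex. Those of Uqcr10 (1896 bp) and Uqcr11 (1838 bp) followed. The Uqcr11 one was nearest to Mbd3, and the peak at the Uqcr11 start was 1272 bp wide. Uqcrq had an ETV5 fold of 25.5 with the summit 15 bp from its own end. Uqcr11 had 22.5 at a peak nearest to Mbd3 and 8.08 at its own start. The catalytic Rieske iron-sulfur subunit Uqcrfs1 had 12.4, and the core proteins Uqcrc1 and Uqcrc2 had 9.27 and 8.55. The lowest values were 8.02 for Uqcrb and 7.30 for Uqcr10 with 14 fragments.

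Complex IV, cytochrome c oxidase, reduces oxygen, and its nuclear subunits come in widely used and tissue-restricted isoforms. ETV5 and H3K4me3 each lay near 15 of its 18 genes, and all 4 genes that lacked a mark were tissue isoforms. The median ETV5 fold was 18.1, from 3.92 to 37.6, and the median H3K4me3 fold was 34.5. Cox4i1, the widely used regulatory subunit IV, had the highest value at 37.6 with 73 fragments (57.2 to 91.8). Cox7a2 followed at 37.4, with the summit 84 bp inside its start. Cox5a and Cox5b had 26.7 and 23.4, each within 60 bp of the start. Lower values were found for Cox7c (9.26), Cox6c (8.57) and Cox7a2l (5.78), the last a factor of supercomplex assembly. Their H3K4me3 folds were 28.6, 53.0 and 39.7.

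Isoform pairs were compared side by side for the 8 tissue isoforms, 7 of complex IV and Ndufa4l2 of the Ndufa4 pair (Ndufa4, named for complex I, is now counted as a complex IV subunit). Of the 8, ETV5 lay near 5 at a median fold of 6.01 and H3K4me3 near 5 at a median fold of 8.16, and in 3 the marks overlapped. All 7 widely used counterparts had both marks, with a median ETV5 fold of 19.96 and a median H3K4me3 fold of 41.9. In every pair the tissue isoform had the lower fold or no peak in both lists. Only Cox4i2 of the 8 reached an ETV5 fold of 10. Muscle markers, examined because several of these isoforms are known from heart and skeletal muscle, had ETV5 near 4 of 4 genes at a median fold of 5.14 and H3K4me3 near 1 of 4 (Tnni3, fold 9.57).

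Cox4i2, the isoform known from lung and from low oxygen, had an ETV5 fold of 20.2 and an H3K4me3 fold of 26.5, against 37.6 and 45.0 for Cox4i1, the H3K4me3 peak of Cox4i1 being nearest to Emc8. The strongest ETV5 peak of Cox4i2 overlapped its only H3K4me3 peak, of 1906 bp. That peak was the widest of complex IV, followed by those of Cox4i1 (1851 bp) and Cox5a (1656 bp). Both Cox4i2 peaks lay at the same end of the gene, the ETV5 summit 493 bp beyond it. The other end had an ETV5 peak of fold 4.48 and no H3K4me3 peak. No start was available for Cox4i2, so whether the stronger peaks lie at its promoter cannot be told. The heart and muscle isoform Cox6a2 had 6.01 and 7.84, against 18.1 and 43.4 for Cox6a1, whose H3K4me3 value came from a peak nearest to Gatc and was 36.7 at its own start. Cox6b2, known from testis, had 5.08 and 8.16, against 15.6 and 41.9 for Cox6b1. All 3 tissue isoforms thus had both marks within 5 kb at folds below those of their counterparts.

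Cox7a1, another heart and muscle isoform, had no ETV5 peak and an H3K4me3 fold of 3.29 from 20 fragments (12.2 to 30.9), against 37.4 and 34.5 for Cox7a2. Cox8b had an ETV5 fold of 3.92 from 7 fragments (2.81 to 14.4) and no H3K4me3, and Cox8c had neither, against 18.9 and 43.8 for Cox8a. Cox7b2 had neither mark, and Cox7b had an ETV5 fold of 27.1 and an H3K4me3 fold of 25.6. Both Cox7b values came from neighbours, ETV5 nearest to Atp7a and H3K4me3 nearest to Magt1. At the Cox7b start itself there was H3K4me3 at a fold of 22.7 and no ETV5 summit within 1 kb. Ndufa4l2, a gene known for induction in hypoxia, had 9 weak ETV5 peaks within 5 kb with folds of 3.97 to 6.60, 5 of them nearest to Shmt2, while its only H3K4me3 peak, with a fold of 15.5, was nearest to Shmt2, and Ndufa4 had 19.96 and 39.1.

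**Figure D2:**
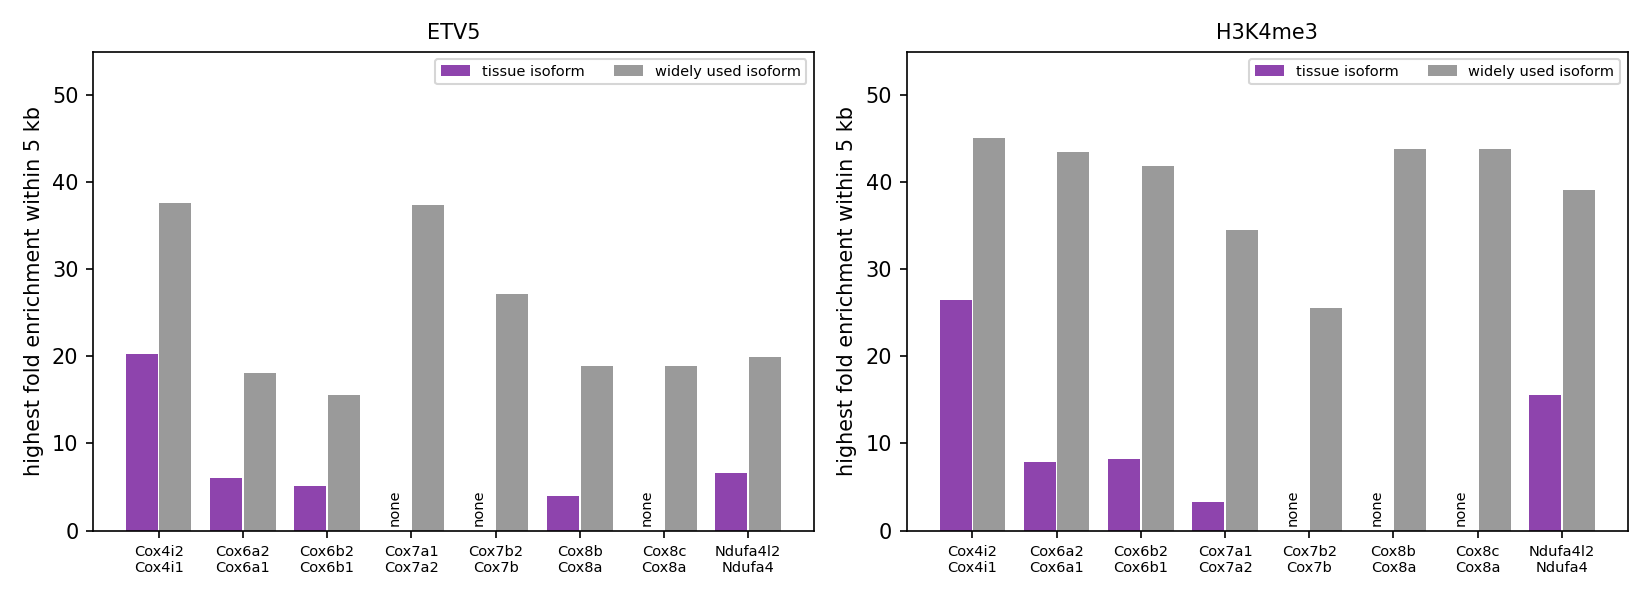
Highest ETV5 (left) and H3K4me3 (right) fold enrichment within 5 kb for each tissue isoform (purple) beside its widely used counterpart (grey), 1 library each, with "none" where no peak was listed. Each purple bar is lower than its grey one, and only Cox4i2 exceeds an ETV5 fold of 10 among the tissue isoforms.

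Some of these calls lie near the 5 kb limit. Inside it lay the nearer of the 2 ETV5 peaks of Cox7b, with a fold of 4.37, at 3631 bp. The Cox7b peak that gave the fold of 27.1 had its summit 4754 bp from the gene. The H3K4me3 peak of Ndufa4l2 lay at 4798 bp, and the ETV5 peak nearest to Cox7a1 lay outside the limit at 7351 bp. The nearest H3K4me3 peak to Cox8b lay 15951 bp away and the nearest ETV5 peaks to Cox8c and Cox7b2 lay 20589 and 619651 bp away. Without the 8 tissue isoforms and the 2 Ndufb4 copies, a choice made after the data were seen, 89 of 90 genes had ETV5 and 90 of 90 had H3K4me3.

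ATP synthase has a catalytic F1 head in the matrix and a proton-conducting Fo part in the membrane joined by stalks. All 17 genes had both marks, with ETV5 folds of 7.12 to 39.9 and a median of 14.3. Their H3K4me3 folds had a median of 47.0 and included the 3 highest of the 100 genes, 60.9 for Atp5j, 57.4 for Atp5g3 and 57.2 for Atp5c1. Atp5j, coupling factor of the stalk, also had the highest ETV5 value, 91 fragments (73.3 to 112) and a fold of 39.9. This peak lies over the promoter that Atp5j shares with Gabpa. The smallest gap from an Atp5j start to a Gabpa start upstream of it is 148 bp. Pairs of starts with overlapping transcripts were not counted. The ETV5 summit lay 76 bp inside the nearest of the annotated Atp5j starts and 9 bp from an annotated end of Gabpa, the nearest gene.

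Atp5d, the delta subunit of F1, had 7 ETV5 peaks and 4 H3K4me3 peaks within 5 kb. The strongest ETV5 peak had 88 fragments and a fold of 36.3 within 1 kb upstream of its start, nearest to Cbarp, and the widest H3K4me3 peak, 4636 bp, was nearest to Midn. Atp5md had an ETV5 fold of 36.2 and 118 fragments, 70 bp upstream of its start and nearest to Pdcd11. Atp5h, the d subunit of the stalk, had a fold of 35.5, 33 bp upstream of its start. Atp5e, the epsilon subunit, had 20.7 at 6 bp from its start. The widest H3K4me3 peaks after that of Atp5d were 2680 bp for Atp5b and 2319 bp for Atp5j. The Atp5b one was nearest to Baz2a, and the peak at the Atp5b start was 1928 bp wide.

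The catalytic beta subunit Atp5b had an ETV5 fold of 16.7 at a peak nearest to Baz2a and 8.39 at its own start, and the alpha subunit Atp5a1 had 12.2, nearest to Haus1. The 3 genes for the ring-forming c subunit had ETV5 folds of 11.3 (Atp5g3), 9.83 (Atp5g2) and 7.15 (Atp5g1), in the same order as their H3K4me3 folds of 57.4, 30.6 and 23.1. The lowest ETV5 fold was 7.12 for Atp5o, the oligomycin-sensitivity protein of the stalk, which had an H3K4me3 fold of 45.0. Grouped after their values were seen, the 5 F1 genes (Atp5a1, Atp5b, Atp5c1, Atp5d and Atp5e) had a median ETV5 fold of 17.5. The 12 other genes had 10.5, and the ranges, 12.2 to 36.3 and 7.12 to 39.9, overlapped.

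**Figure D3:**
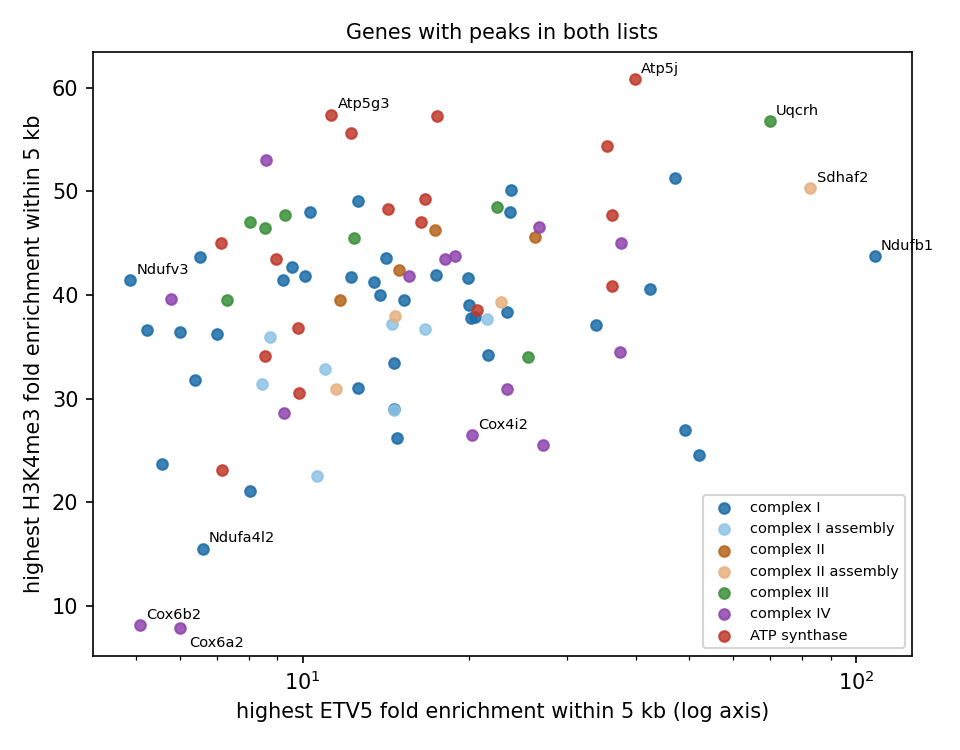
Highest H3K4me3 fold against highest ETV5 fold (log axis) within 5 kb for the 93 genes with both marks, 1 point per gene coloured by complex. The tissue isoforms Cox6a2, Cox6b2 and Ndufa4l2 lie lowest, and genes with an ETV5 fold near 5, such as Ndufv3, reach H3K4me3 folds near those of Ndufb1.

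Across the 93 genes with both marks the highest ETV5 and H3K4me3 folds were loosely related, with a Spearman correlation of 0.27, against 0.46 over 12356 other genes. ETV5 fold and the width of the widest H3K4me3 peak had a correlation of 0.53 over the 93 genes. At the start sites of 75 genes with both summits it was 0.23 for the folds. Points share the same pair of libraries and some share peaks with neighbours, so these are descriptions across genes.

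Start sites were available for 82 of the 100 genes. ETV5 summits lay within 1 kb of the start of 77 (93.9%) and H3K4me3 summits of 78 (95.1%), against 55.6% and 54.2% of all genes with a start in the table. ETV5 summits lay on both sides of the start, 37 of the 77 upstream. Their signed position, counted positive into the gene, had a median of 1 bp and quartiles of 70 bp upstream and 117 bp downstream. H3K4me3 sat inside the gene at a median of 205 bp with quartiles of 174 and 236 bp. Over the other genes the medians were 42 and 207 bp, with quartiles for H3K4me3 of 124 and 293 bp. ETV5 lay within 250 bp of the start in 63 of 77 (81.8%), against 72.8% of the other genes with a summit there. It lay upstream of the H3K4me3 summit in 59 of the 75 genes with both (78.7%), against 70.8%. The ETV5 fold of the start-site peak had a median of 12.6, against 13.7 over the other genes.

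**Figure D4:**
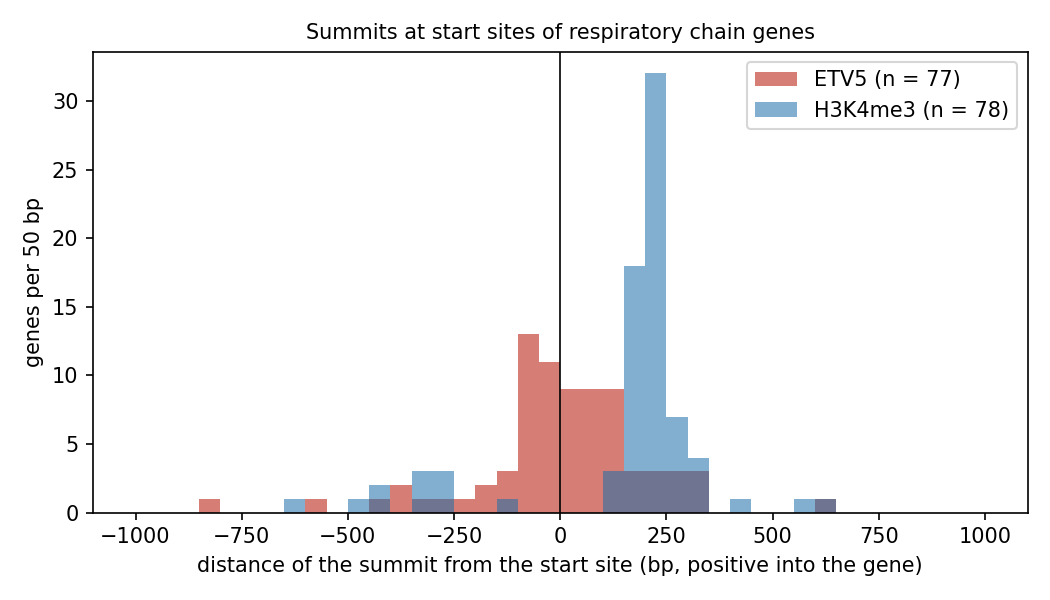
Distance of the ETV5 (red, 77 genes) and H3K4me3 (blue, 78 genes) summits from the start site, in 50 bp bins with positive values inside the gene. ETV5 summits lie on both sides of the start (median signed position 1 bp) and H3K4me3 summits form a narrow peak inside the gene (median 205 bp).

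Many of these promoters are shared with a divergent neighbour. A gene starting in the opposite direction within 1 kb upstream was found for 23 of the 82 genes (28.0%), against 8.59% of all genes, with gaps of 10 to 454 bp and a median of 135 bp. Among genes with a start and H3K4me3 within 5 kb, the shares were 29.1% of respiratory chain genes and 13.6% of all genes. The share was 33.8% for mitochondrial ribosomal proteins, 18.8% for the proteasome and 14.8% for cytosolic ribosomal proteins. It was 34.4% for the genes of the pathway with other symbols. The 23 were Ndufa4, Ndufa5, Ndufa7, Ndufa8, Ndufa11, Ndufa13, Ndufb1, Ndufb3, Ndufb5, Ndufs3, 3 complex I assembly factors (Ndufaf2, Ndufaf5 and Ndufaf8), Sdha, Sdhd, Sdhaf2, Uqcrh, Uqcr10, Atp5c1, Atp5h, Atp5j, Atp5md and Atp5pb, with none among the 13 complex IV genes that had a start. Some neighbours are mitochondrial or ribosomal genes themselves, such as Timm8b, an inner-membrane import chaperone, beside Sdhd at 52 bp, Mrpl47 beside Ndufb5 and Rps28 beside Ndufa7 at 10 bp.

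The 23 genes with a divergent neighbour had a median start-site ETV5 fold of 17.4, and the 59 without had 11.7. The corresponding medians over the other genes were 19.1 and 12.9. The ETV5 summit lay a median of 70 bp upstream of the start in the genes with a divergent neighbour and 45.5 bp inside it in those without. H3K4me3 summits lay inside the gene in 68.2% of those with a divergent neighbour and in 92.9% of those without. The other genes showed the same contrast, with shares of 51.1% and 88.5% and median ETV5 positions 66 bp upstream and 58 bp inside. Ndufb1, Sdhaf2, Uqcrh and Ndufa13, with ETV5 folds of 49.1 to 108, all have divergent neighbours, and which gene of such a pair a peak serves cannot be told apart here.

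The ETS sequence CCGGAAG was searched on both strands from 250 bases upstream to 50 downstream of the start. It was found in 22 of 82 windows (26.8%), against 13.1% of all windows. With both summits required at the start, the shares were 21 of 75 (28.0%) and 22.6% of 8682 other genes, a smaller gap than over all windows. Other gene groups had higher shares of windows with the sequence than the 26.8% here. These were 40.7% for cytosolic ribosomal proteins, 36.8% for mitochondrial ribosomal proteins, 31.2% for the proteasome and 37.5% for genes of the pathway with other symbols. The 22 were Ndufb6, Ndufb7, Ndufs3, Ndufs8, Ndufaf1, Ndufaf8, Sdhb, Sdhd, Sdhaf1, Sdhaf2, Sdhaf3, Uqcrh, Uqcr11, Cox6a1, Cox6b1, Cox8a, Atp5e, Atp5h, Atp5j, Atp5k, Atp5l and Atp5md. All 22 had an ETV5 summit within 1 kb of the start, at a median fold of 17.3, against 55 of the 60 without the sequence, at a median of 9.64. Of the other genes 89.8% with the sequence and 50.3% without had such a summit, at median folds of 24.6 and 11.9.

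Ndufs3, a core subunit, has the sequence on each strand, centred 24 bp upstream and 4 bp downstream of its start, and its ETV5 summit lay 29 bp upstream with a fold of 23.7. The distance from the summit to the nearest such sequence had a median of 74 bp over the 22 genes and was within 100 bp in 14 of them (63.6%), against a median of 48 bp and 72.1% over the other genes. It was 10 bp in Cox8a, 38 bp in Sdhd and 178 bp in Sdhaf2. Ndufb1, whose summit lay inside the window, had a fold of 108 with no CCGGAAG there.

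Other sequences were counted in the windows with both summits. CATGCGC for NRF1 was found in 15 of 75 (20%), against 8.68% of the other genes with both. AAGATGG for YY1 was found in 16.0% against 8.56%, and AAGGTCA for the estrogen-related receptors in 9.33% against 3.49%. The SP-family sequence GGGCGG was found in 50.7% against 74.9%, and CCAAT for NFY in 41.3% against 42.8%. The shorter ETS forms were found in 40.0% against 34.7% (CCGGAA, which lies within the 7-letter form) and in 74.7% against 79.3% (the 5-letter GGAAG). Each match is a description of the letters, not of a factor bound there.

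**Figure D5:**
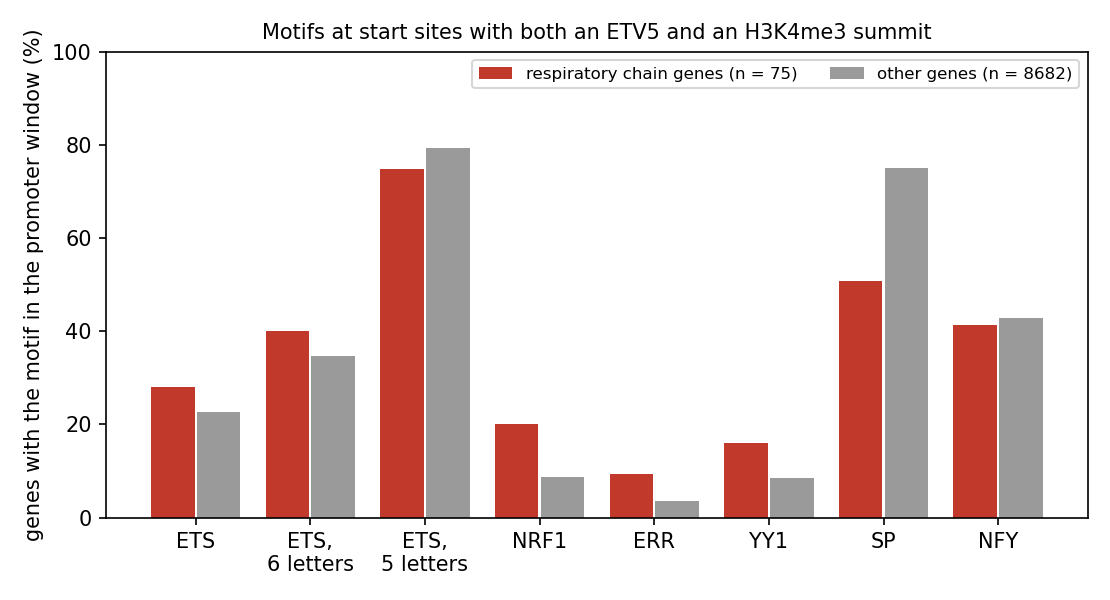
Share of promoter windows with each sequence, in percent, for the 75 respiratory chain genes with an ETV5 and an H3K4me3 summit at the start (red) and the 8682 other genes with both (grey). The NRF1 sequence was found in 20% against 8.68% and the SP sequence in 50.7% against 74.9%.

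Other genes of the pathway, from a list of cytochrome c genes and assembly factors with other symbols, had both marks in 38 of 38, with a median ETV5 fold of 18.6. The highest were Lrpprc, which stabilises mitochondrial mRNAs, at 104, the complex I assembly factor Timmdc1 at 90.1 and the complex IV assembly factors Cox20 at 82.7 and Pet100 at 56.8. Cyc1 had 25.4, at a peak nearest to Sharpin, and Cycs, the mobile electron carrier, had 5.72, the lowest of the list. Of 13 known regulators of these genes all had both marks, with a median ETV5 fold of 32.04. Gabpb1, the partner subunit of Gabpa, had 92.1, the mitochondrial transcription factors Tfb2m and Tfam had 37.0 and 34.7, Nrf1 had 18.1, the coactivator Ppargc1a had 11.6 and Tfb1m had 9.14.

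Set beside other ubiquitous gene groups, the respiratory chain genes did not have the highest ETV5 values. ETV5 lay near 94 of the 100 respiratory chain genes, 73 of 73 cytosolic ribosomal protein genes, 76 of 77 mitochondrial ribosomal protein genes and 37 of 39 proteasome genes. The median folds were 14.6 for the respiratory chain, 22.3 for cytosolic ribosomal proteins, 19.8 for mitochondrial ribosomal proteins and 14.6 for the proteasome. The H3K4me3 medians were 39.5, 45.5, 40.3 and 42.0 in the same order. These differences were not tested, as there was 1 library per antibody.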

How the data were processed

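ETV5 and H3K4me3 were measured by ChIP-seq in 1 library each from AT2 cells, with 1 input library described. Peaks were called per library with MACS2 2.1.0.20150420 (per the file headers and the submitters' processing notes) at a q-value threshold of 0.05 with 1 tag kept per position. No aligner is named in the labels or headers used here. Per the file headers the lists rest on 5715049 ETV5 tags against 27495486 input tags (fragments of 203 bp) and 34907608 H3K4me3 tags against 44758677 input tags (288 bp). The input named for ETV5 differs from the one described in the labels. The pileup signal, fold enrichment ratio and −log10 p-values and q-values are as the authors deposited them. The fold is the pileup over the local input background with 1 added to both, per the file headers, and all pileups were whole numbers.

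The labels name build mm9, but the coordinates are those of GRCm38, since 66.0% of H3K4me3 summits lay within 1 kb of an end of a gene in the GRCm38.p6 RefSeq table. Peaks on chromosomes 1 to 19 and X were used (31149 ETV5 and 15122 H3K4me3). A gene had a peak when any base of it lay within 5 kb of its annotated extent. Start sites, neighbours and motifs came from the RefSeq promoter table, which matched 82 of the 100 genes by gene identifier. Ribosomal and proteasome genes were matched by symbol. Counting steps were tested on simulated data. Alternatives covered windows of 1 and 20 kb, stricter thresholds (−log10 q and fold of at least 10), the summit, gene ends, nearest genes, an overlap of 50% of the ETV5 peak, start sites, subunits only and other ETS letters. Named were, per complex, the 5 highest ETV5 folds, the 3 widest H3K4me3 peaks, genes lacking a mark and the tissue isoforms with their counterparts. Some items that this rule names are left out of the text. Other genes were chosen for their roles or after their values were seen. Members and lists were chosen with earlier results of these data known. Python 3.11.15, numpy 2.4.6, pandas 2.3.3, scipy 1.17.1 and matplotlib 3.10.9 were used.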

Additional observations from a re-analysis of the deposited data

How the results depend on the processing

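The number of genes with ETV5 ran from 65 to 95 over 10 alternatives and that with H3K4me3 from 80 to 96 over 8, against 94 and 95. The fewest for ETV5 came from peaks with a fold of at least 10, and counting a peak only for the gene with the nearest end left 73 with ETV5 and 80 with H3K4me3. A window of 1 kb lost only Cox7b for ETV5 and Ndufa4l2 for H3K4me3, and one of 20 kb gained only Cox7a1 for ETV5 and Cox8b for H3K4me3. Genes with overlapping marks ran from 64 to 94. The median highest ETV5 fold was 18.6 within 20 kb and 18.9 with peaks of fold 10 or more, both above the 14.6 reported, and 12.2 to 16.0 in 6 others. The ETS sequence was found in 31 genes as CCGGAA and in 61 as the 5-letter GGAAG, against 22. Leaving out tissue isoforms and Ndufb4 copies was chosen after seeing the data. No paired analysis was possible because there was 1 library per antibody. The lower ETV5 depth limits weak peaks, and distance alone does not tie a peak to a gene.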
